A study of Mus musculus with 42 samples.

Results

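The X-linked genes described here are known for expression in the placental lineages of the mouse: the Rhox homeobox genes Rhox4e, Rhox5, Rhox6 and Rhox9, the trophoblast gene Plac1, the placental homeobox gene Esx1, and the Xlr family genes Xlr3a and Xlr4b. They were chosen as a list of 8 gene symbols. Of these, 7 had a row in all 3 deposited tables, out of 24083 genes in the largest of them, and Rhox5 had none, so it was not analysed here. RNA was profiled by Smart-seq2, a method for a few cells that captures polyadenylated transcripts, in 42 samples. Every father was of the strain PWK/PhJ, so sequence differences between the parental strains separate the maternal from the paternal allele. A table by stage held wild-type C57BL/6N X PWK/PhJ females: 8-cell embryos (3 samples), morulae (3), inner cell mass (ICM, 2) and trophectoderm (TE, 3) of E3.5 blastocysts, epiblast (1), visceral endoderm (VE, 3) and extraembryonic ectoderm (ExE, 2) at E6.5, and E9.5 yolk sac (1). A morula table held wild-type controls of the same cross, 4 male and 3 female, and 4 female morulae named Xp XRRa KO, in which the paternal X lacks the region XRRa. The remaining table held X-linked genes only, in ExE of 13 female EedmNull embryos at E7.5. Their mothers were Eed fl/fl;Gdf9-Cre, in which Cre is made in the oocyte, and their fathers were wild-type PWK/PhJ, so those embryos can still use a paternal Eed allele. The labels name no clones, pooled animals or batches, and no wild-type ExE of E7.5 was among the groups.

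Female mammals silence 1 of their X chromosomes. In the extraembryonic lineages of the mouse this X inactivation is imprinted, so that the paternal X is silenced, whereas the epiblast reactivates it and later silences either X at random. EED belongs to the core of PRC2, the Polycomb complex that methylates lysine 27 of histone H3, and embryos of mothers without it are known to start imprinted X inactivation abnormally. The Rhox cluster is an array of reproductive homeobox genes on the X, several of them expressed in placenta and gonads. Xlr genes are a multicopy X-linked family related to the synaptonemal complex protein SYCP3, and Xlr3b, Xlr4b and Xlr4c are known as imprinted genes of the mouse brain, where the maternal X expresses them.

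All values were FPKM (fragments per kilobase of transcript, scaled to the library), listed per allele. In the stage and morula tables the authors merged the samples of a group into 1 column per allele, so no spread between samples could be computed and no difference was tested there. The tables gave no counts and the depth is unknown. Per column, 4163 (yolk sac) to 9164 (ExE) genes reached 1 FPKM, and the EedmNull embryos had 272 to 301 X-linked genes at that level. The labelled E6.5 tissues carried their markers. All 12 listed TE and ExE markers reached 1 FPKM in ExE (summed 1395 FPKM), against 4 of 12 in VE (701 FPKM) and 4 of 12 in epiblast (98.9 FPKM). All 9 listed VE markers reached 1 FPKM in VE (summed 3082 FPKM) and also in ExE (270 FPKM), where Apoa1 stood at 109 FPKM against 1324 in VE. All 8 listed epiblast and ICM markers reached 1 FPKM in epiblast (summed 855 FPKM), and 7 of the 8 did so in ExE (342 FPKM), where Utf1 stood at 276 FPKM against 369 in epiblast and Pou5f1 at 14.04 against 79.4. Of the 7 ectoplacental and giant cell markers, 3 reached 1 FPKM in ExE, Phlda2 (383 FPKM), Hand1 (45.5) and Ascl2 (30.6), while Tpbpa, Prl3d1 and Prl2c2 were at 0 in every column of the stage and morula tables. The part of these other markers in the ExE values below was not tested. The blastocyst columns overlapped in markers. Of the 12 TE and ExE markers, 11 reached 1 FPKM in ICM (summed 1411 FPKM) and 10 in TE (4909 FPKM). Of the 8 epiblast and ICM markers, 7 did so in ICM (945 FPKM) and 4 in TE (132 FPKM). Pou5f1 stood at 83.9 FPKM in TE against 336 in ICM, and Nanog at 30.7 against 157. The part of this overlap in the ICM and TE values was not tested. The marker lists held 2 X-linked genes only, so the tissue of the EedmNull samples was not checked. Fewer cells of a type and less RNA per cell cannot be told apart in such samples. The cross ran in 1 direction, so parent of origin and strain cannot be told apart.

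Several of the genes are members of near-identical families, which bears on every allele value below. The longest coding transcript of each gene in the GENCODE vM21 annotation of GRCm38.p6 was cut into windows of 50 bases, and each window was looked up in the transcripts of all other genes. For Rhox4e, 92.6% of windows occurred in another gene, all of them Rhox4 copies. For Xlr4b the share was 83.9% and for Xlr3a 75.5%. Rhox6 and Rhox9 shared windows with each other only, 16.5% and 19.1%, and no window of Plac1 or Esx1 occurred elsewhere. Coding sequences of Rhox4e and Rhox4c were 99.3% identical, with 4 mismatches in 615 bases, those of Xlr4b and Xlr4c 99.5%, those of Xlr3a and Xlr3b 98.2% and those of Rhox6 and Rhox9 90.6%. The stretches below are 60 coding bases each, from Rhox4, from Rhox6 and Rhox9, and from Xlr4. Every position that differs between the lines is in capitals. Each holds the most differences among stretches with 12 or fewer, searched in steps of 3 bases. Rhox6 and Rhox9 reached that limit of 12 and may differ more elsewhere, and no Xlr3 stretch is shown. Those of Rhox4 and Xlr4 show how few bases tell one copy from another. Coding bases 25 to 84, counted from the start codon, differ at 4 positions between the 3 Rhox4 copies that were expressed in ExE, and Rhox4e and Rhox4c differ at only 1 of these:
Rhox4e: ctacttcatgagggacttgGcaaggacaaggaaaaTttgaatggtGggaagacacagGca
Rhox4c: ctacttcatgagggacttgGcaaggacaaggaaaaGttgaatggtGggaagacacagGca
Rhox4f: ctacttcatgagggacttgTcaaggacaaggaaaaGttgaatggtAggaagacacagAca
Coding bases 376 to 435 of Rhox6 and Rhox9 differ at 12 positions:
Rhox6: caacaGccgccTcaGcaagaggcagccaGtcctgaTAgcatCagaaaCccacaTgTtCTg
Rhox9: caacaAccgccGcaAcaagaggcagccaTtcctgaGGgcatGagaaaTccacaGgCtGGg
Coding bases 508 to 567 of the Xlr4 copies differ at 3 positions:
Xlr4b: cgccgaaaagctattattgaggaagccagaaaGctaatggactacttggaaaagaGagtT
Xlr4a: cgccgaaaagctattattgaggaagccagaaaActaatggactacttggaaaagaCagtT
Xlr4c: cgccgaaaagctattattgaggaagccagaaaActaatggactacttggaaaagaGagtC
Reads that fall between such positions cannot be given to a copy by sequence, and the sources used here do not give how the authors placed them. Values of Rhox4e, Xlr3a and Xlr4b as single genes are therefore uncertain, and sums over their copies are given beside them.

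**Figure D1:**
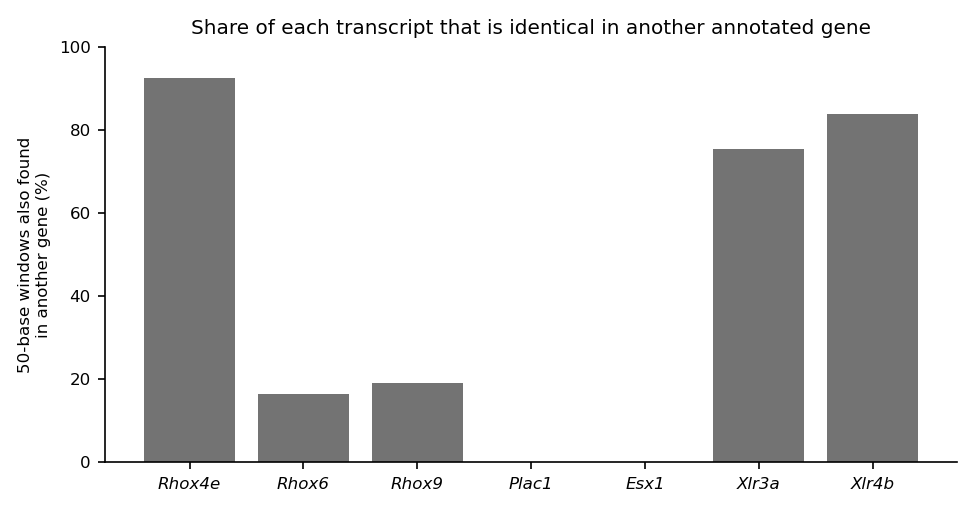
Percent of the 50-base windows of each gene's transcript (y axis) that also occur in a transcript of another gene, for the 7 measured genes (x axis). Rhox4e stands highest at 92.6%, Xlr4b and Xlr3a follow at 83.9% and 75.5%, and Plac1 and Esx1 are at 0%.

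Promoters (RefSeq, GRCm38.p6, 250 bases before to 50 after the start) were matched by symbol for Rhox4e, Plac1 (2 starts), Esx1, Xlr3a and Xlr4b among the measured genes, and for none of Rhox6 and Rhox9. Those of Xlr3a and Xlr4b are shown because they share the longest run of letters of any pair compared, 15 bases that read CCAGCCAATCAGAGA. A further reason was that both genes were read mainly from the maternal allele in each stage column from the ICM onwards with 1 FPKM or more. That does not set them apart, since Plac1 and Rhox4e were maternal in full in all such columns. In EedmNull ExE, Xlr3a was not mainly maternal. A link between the shared run and the alleles was not tested. That run, in capitals below, occurred in 9 of 32851 promoters, namely those of Xlr3a, Xlr3b, Xlr4a, Xlr4b, Xlr4c, Cdh18, Cxcl9, Gm38474 and Ndufa6. The first lies on the minus strand at chrX:73097046-73097345 and the second on the plus strand at chrX:73214083-73214382:
Xlr3a: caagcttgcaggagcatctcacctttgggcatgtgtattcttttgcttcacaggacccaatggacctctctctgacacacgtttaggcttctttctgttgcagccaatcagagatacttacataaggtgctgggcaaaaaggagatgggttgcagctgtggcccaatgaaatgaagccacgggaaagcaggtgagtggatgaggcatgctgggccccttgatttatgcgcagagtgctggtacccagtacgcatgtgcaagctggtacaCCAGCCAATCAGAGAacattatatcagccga
Xlr4b: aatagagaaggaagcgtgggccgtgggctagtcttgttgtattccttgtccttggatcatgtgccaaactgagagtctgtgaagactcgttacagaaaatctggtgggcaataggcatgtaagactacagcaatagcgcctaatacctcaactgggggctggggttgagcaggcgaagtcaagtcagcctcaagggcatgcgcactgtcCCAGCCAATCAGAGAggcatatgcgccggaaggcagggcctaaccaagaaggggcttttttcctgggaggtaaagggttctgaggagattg
The run holds the letters CCAAT, which on either strand occur in 37.4% of all promoters of this length. CCAAT occurred 4 times in the Xlr3a promoter, 1 time in that of Xlr4b and 1 time, on the reverse strand, in that of Rhox4e. GCCNNNGGC, found in 16.6% of promoters, occurred in Xlr4b alone among the measured genes. TATAAA (13.6% of promoters) and GGAATG (14.7%) occurred in none of them. CG dinucleotides numbered 24 in the Esx1 promoter, 10 in Rhox4e, 8 in Xlr4b, 5 in Xlr3a, and 3 and 6 at the Plac1 starts, against a median of 7 and quartiles of 3 and 20 over all promoters. These matches describe letters in a window and not binding.

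The 3 Rhox genes were highest in ExE, and of the other columns from the ICM onwards only VE, for Rhox6, reached 1 FPKM. Rhox4e, a homeobox gene of the Rhox4 array, was listed at 0 from the 8-cell stage to the epiblast, at 0.360 FPKM in VE, at 12.8 FPKM in ExE and at 0 in yolk sac. Rhox6 was listed at 1.54 FPKM in 8-cell embryos, 0.102 in morulae, 0 in ICM and TE, 0.160 in epiblast, 7.27 in VE, 12.1 in ExE and 0 in yolk sac. Rhox9, the closest relative of Rhox6, was at 1.71 FPKM in 8-cell embryos, 0.306 in morulae, 0 in ICM, 0.317 in TE, 0 in epiblast, 0.648 in VE, 5.73 in ExE and 0 in yolk sac. ExE was thus the highest column for each of the 3, and VE the second for Rhox4e and Rhox6. For pooled columns a rule of size took the place of a test, under which a gene with 5 FPKM or more in either column had to differ by a factor of 2 or more after 1 FPKM was added to each value. Log2 ratios below are on that scale. A gene at 2 FPKM or less in one column could enter only through the other and then had to pass, so for such genes the ratio describes the columns and passing is no result. That holds for the 3 Rhox genes against TE, where the ratios of ExE to TE were 3.79 for Rhox4e, 3.71 for Rhox6 and 2.35 for Rhox9, and 22.6% of the 6897 genes that entered were higher. It holds also for Rhox4e (3.34) and Rhox9 (2.03) against VE. Rhox6, at 7.27 FPKM in VE, could have gone either way and did not pass (0.66), with 26.6% of 6767 genes higher and 9.77% lower.

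Plac1, which encodes an extracellular trophoblast protein needed for normal placental growth, had its peak earlier. It stood at 1.08 FPKM in 8-cell embryos, 0.742 in morulae, 2.57 in ICM, 62.8 in TE, 0 in epiblast, 6.13 in VE, 7.84 in ExE and 0 in yolk sac. TE therefore held the highest level, and ExE and VE followed. Plac1 in TE was higher than in ICM by a log2 ratio of 4.16, where 11.8% of 6400 genes were higher and 13% lower past the rule, and the summed FPKM of the 12 TE and ExE markers was 4909 in TE and 1411 in ICM. From TE to ExE it was lower past the rule, by a log2 ratio of -2.85, as were 16.8% of genes, and the same marker sum was 4909 and 1395. The 3 Rhox genes and Plac1 thus ordered TE and ExE in opposite ways. Esx1, a homeobox gene of trophoblast that affects placental growth, never reached 1 FPKM in the stage table: its highest totals were 0.483 FPKM in 8-cell embryos, 0.421 in VE and 0.120 in ExE, and it was listed at 0 in the other columns.

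The Xlr genes were the most widely expressed of the list. Xlr3a stood at 9.86 FPKM in 8-cell embryos, 1.66 in morulae, 18.7 in ICM, 33.4 in TE, 1.88 in epiblast, 43.0 in VE, 51.7 in ExE and 0 in yolk sac. Xlr4b stood at 13.7 FPKM in 8-cell embryos, 7.88 in morulae, 14.3 in ICM, 26.0 in TE, 0 in epiblast, 17.8 in VE, 16.3 in ExE and 22.3 in yolk sac. Epiblast was the lowest column for Xlr4b and among the 3 lowest for Xlr3a. TE exceeded ICM by log2 ratios of 0.81 and 0.82, which did not pass the rule. From the 8-cell stage to the morula, Xlr3a had a log2 ratio of -2.03, with a morula value so low that it had to pass once it entered, and Xlr4b did not pass (-0.72), where 6.21% of 5541 genes were lower and 31.9% higher. Against VE, ExE differed by 0.26 for Xlr3a and -0.12 for Xlr4b, neither past the rule. The 3 Xlr4 copies summed gave 40.7 FPKM in 8-cell embryos, 15.3 in morulae, 24.99 in ICM, 58.3 in TE, 1.12 in epiblast, 52.6 in VE, 44.1 in ExE and 22.3 in yolk sac, so their order of columns differs from that of Xlr4b alone.

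Epiblast held little of any of these genes. At E6.5, 6 of the 7 measured genes reached 5 FPKM in ExE and none in epiblast, where the highest was Xlr3a at 1.88 FPKM. All 6 thus entered through ExE alone and had to pass the rule, so that nothing is read from their passing beside the 20% of 6500 genes higher and 6.25% lower. Their log2 ratios of ExE to epiblast were 4.19 for Xlr3a, 4.11 for Xlr4b, 3.79 for Rhox4e, 3.49 for Rhox6, 3.14 for Plac1 and 2.75 for Rhox9. Epiblast was 1 sample and ExE 2, so this contrast compares those libraries. In yolk sac, the extraembryonic membrane that VE contributes to, Xlr4b was the only measured gene above 0. The ratios of yolk sac to VE were -3.05 for Rhox6, -2.83 for Plac1 and -5.46 for Xlr3a, each at 0 in yolk sac and so bound to pass, in a contrast where 60.2% of 5982 genes were lower and 8.48% higher. Xlr4b differed by 0.31 and did not pass. The yolk sac column was 1 sample with the fewest genes at 1 FPKM.

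**Figure D2:**
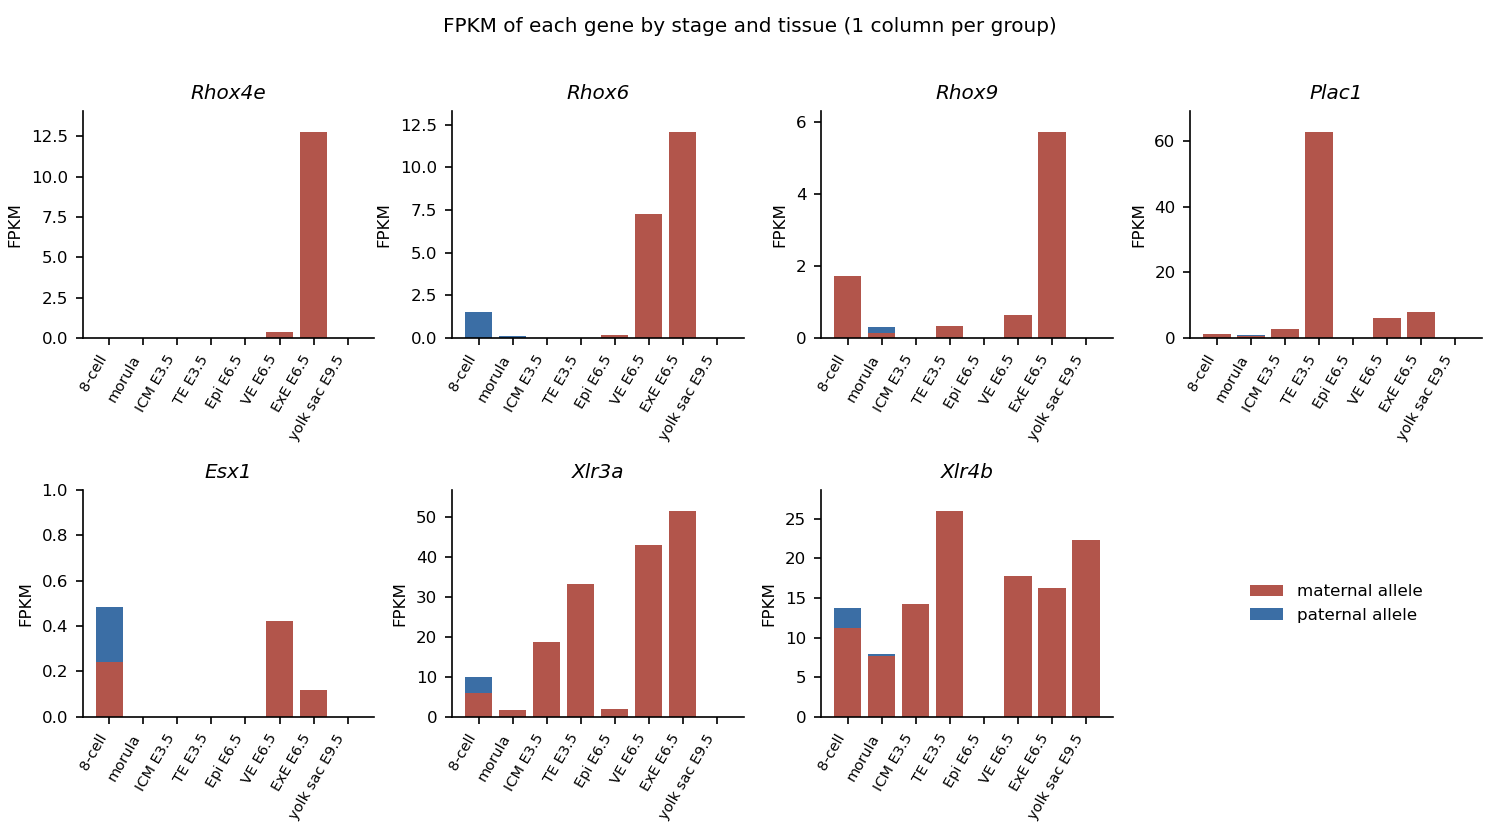
FPKM of the 7 measured genes (y axis, a scale per gene) in the 8 columns of the stage table (x axis), with the maternal allele in red and the paternal allele stacked in blue. Bars are pooled columns without error bars. Blue is visible in the 8-cell and morula columns and not from the ICM onwards, Plac1 peaks in TE at 62.8 FPKM, and the 3 Rhox genes peak in ExE.

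The genes whose totals followed each member most closely over the 8 stage columns were ranked by Pearson's r on log2 of FPKM plus 1, among 8362 genes that reached 5 FPKM in a column. With 8 points the values describe these columns only. Rhox4e was followed by Ccdc3 (r = 0.99996, 13.1 FPKM in ExE), Irf2 and Tmem181b-ps, each of which was nearly confined to ExE among these columns. For Rhox6 the nearest were Stc2 (0.96), Snord33 and Man2b1. Rhox9 was followed by the X-linked Gm9 (0.94, 23.9 FPKM in ExE), S100a13 and Esrrb (0.88, 13.6 FPKM in ExE), a trophoblast stem cell factor of the marker list. Plac1 was followed by Abhd14b (0.98, 24.8 FPKM in TE), Gak and Kdsr. Xlr3a was followed by Zfp710 (0.96), Zfp868 and its copy Xlr3b (0.96). Xlr4b was followed by 2200002D01Rik (0.98, 45.2 FPKM in TE), Pik3cb and Alg5.

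The allele values of the stage table addressed from which X these genes were transcribed. The paternal share is the paternal FPKM over the sum of both alleles, given where that sum was at least 1 FPKM. Plac1 lay just inside this minimum in 8-cell embryos (1.08 FPKM) and just outside it in morulae (0.742), as did Rhox9 in VE (0.648). A value of 0 for both alleles can mean no expression or no reads that tell the alleles apart. In 8-cell embryos, 5 measured genes had a share and they were scattered: 38.3% for Xlr3a, 18.4% for Xlr4b, 0% for Plac1 and Rhox9, and 100% for Rhox6. A share of 20% or less was thus found in 3 of 5, against 17.4% of 259 X-linked genes, and the 3 genes at 0% or 100% had totals under 2 FPKM. In morulae, Xlr3a was at 0% and Xlr4b at 2.39%, against 39% of 251 X-linked genes at 20% or less.

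From the blastocyst onwards nearly all signal of these genes was maternal. In ICM, Plac1 and Xlr3a were at 0% and Xlr4b at 0.222%, where 69.4% of 271 X-linked genes were at 20% or less. In TE the same 3 genes were at 0%, where 82.1% of 273 were at 20% or less and 24.5% at exactly 0%. In VE, Plac1, Xlr3a and Xlr4b were at 0% and Rhox6 at 0.270%, where 97.2% of 320 genes were at 20% or less and 22.5% at 0%. In ExE, Rhox4e, Rhox6, Rhox9, Plac1 and Xlr3a were at 0% and Xlr4b at 0.332%, so 5 of 6 genes were at exactly 0%, where 10.1% of 347 X-linked genes were at 0% and 87.6% at 20% or less. The paternal level of Xlr4b there was 0.0542 FPKM. The epiblast gave a share for 1 gene only, Xlr3a at 0% with 1.88 FPKM, in a tissue where 4.92% of 305 X-linked genes were at 20% or less. In yolk sac Xlr4b was at 0%, as were 84.8% of 145 X-linked genes, with 90.3% at 20% or less. Because the cross ran in 1 direction, parent of origin and strain cannot be told apart in these shares. The yield of PWK/PhJ reads was not tested. The median share of X-linked genes was 47.8% in epiblast and 4.78% in ExE. In EedmNull ExE, described below, the highest paternal values were 114 FPKM for Rhox6, 39.9 for Rhox9 and 36.3 for Xlr3a. They were 15.5 FPKM for Plac1, 3.22 for Rhox4e and 2.23 for Xlr4b.

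Other genes of the same families were read from lists of symbols. Of 30 further Rhox symbols, 27 had a row in the stage table and 4 reached 1 FPKM in ExE: Rhox4f (8.98 FPKM), Rhox4c (8.90), Rhox1 (1.17) and Rhox2a (1.05), each with a paternal value of 0. All 4 were at 0 in epiblast. Rhox4 copies summed gave 30.7 FPKM in ExE, of which Rhox4e held 12.8. Of 16 further Xlr family symbols, 10 had a row and 6 reached 1 FPKM in ExE. In epiblast Xlr4c stood at 0.632 FPKM, Xlr4a at 0.487 and the other 4 at 0. Their paternal values in ExE were 0.151 FPKM for Xlr3b (total 38.6), 0.120 for Xlr4c (15.2), 0.0643 for Xlr3c (15.2), 0.0507 for Xlr4a (12.6) and 0 for Xlr5a and Xlr5b. In 8-cell embryos the copies carried more paternal signal: 36.1% for Xlr4c, 32.6% for Xlr3c and 26.2% for Xlr4a, but 0% for Xlr3b. Of 17 other X-linked trophoblast and placental symbols, 11 had a row and 8 reached 1 FPKM in ExE. Among these, Ldoc1, a retrotransposon-derived placental gene, shared the TE peak of Plac1: it stood at 28.5 FPKM in TE and 16.02 in ExE, with 0.0142 FPKM paternal in ExE. Gpc3, which encodes a heparan sulfate proteoglycan, was highest in VE (355 FPKM) and had a share of 5.10% there. Not all 8 were mainly maternal in ExE: the paternal share was 45.2% for Cxx1c, 23.1% for Cxx1b and 21.4% for Cxx1a, with totals of 2.49 to 4.03 FPKM, and 0% to 6.57% for the other 5.

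The morula table addressed whether a paternal deletion of XRRa changes expression from the paternal X. In control male morulae, which have no paternal X, every measured gene was listed at 0 for the paternal allele. Xlr4b at 11.3 FPKM, Xlr3a at 8.95 and Plac1 at 0.261 were maternal in full. For these genes this checks only that maternal reads were not called paternal. Whether paternal reads would be found cannot be seen in males. Rhox4e, Rhox6, Rhox9 and Esx1 were at 0 for both alleles in the males and so were not checked. Of 258 X-linked genes there, 67.4% were at 0% and 98.4% at 20% or less. In control females, Xlr3a (3.62 FPKM) and Xlr4b (3.57) also had a paternal value of 0, Rhox9 had 7.64 maternal and 0.0805 paternal, and Plac1 had 1.96 maternal and 0.124 paternal. In Xp XRRa KO females the paternal values were 1.16 FPKM for Xlr3a, 1.003 for Xlr4b, 1.34 for Rhox9 and 0.917 for Plac1. These 4 genes were thus higher from the paternal allele in the deletion column than in the control female column. Rhox6 went from 0.947 to 0.205 and Rhox4e was at 0 throughout. The X-linked genes with 1 FPKM or more had a median paternal share of 29.3% in control females and 54.2% in deletion females, so higher paternal signal was not particular to these genes. Paternal shares stood at 0% and 18.7% for Xlr3a, at 0% and 14.5% for Xlr4b, and at 1.04% and 32.4% for Rhox9, in control and deletion females. A share of 20% or less was found in 4 of 4 measured genes in control females, where 33.2% of 259 X-linked genes were that low. In deletion females it was found in 2 of 3, where 3.57% of 280 were. Just under the 1 FPKM minimum, Rhox6 in control females (0.947 FPKM) and Plac1 in deletion females (0.917 FPKM) were paternal in full. Maternal Plac1 went from 1.96 FPKM in control females to 0 in deletion females. At a minimum of 0.1 FPKM the counts were 4 of 5 in control females, against 37.4% of 382 X-linked genes. In deletion females they were 3 of 6, against 9.27% of 410.

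None of those paternal values reached the 5 FPKM of the rule, so no member entered the paternal contrast, in which 5.52% of 4043 genes were higher and 4.43% lower. Maternal Rhox9 was lower past the rule (log2 ratio -1.19), as were 5.75% of 4072 genes, with 4.69% higher. The control female value of Rhox9 behind this ratio (7.72 FPKM in total) itself stood apart, since control males were at 0 and the wild-type female morulae of the stage table, normalized separately, at 0.306 FPKM. For totals, Rhox9 (-0.77), Xlr3a (0.64) and Xlr4b (0.79) entered and none passed, against 4.28% of 5590 genes higher and 3.52% lower. Xlr4 copies summed gave a paternal share of 6.48% in control females and 44.1% in deletion females, larger than that of Xlr4b alone. Xlr4a, with 4.72 FPKM paternal in the deletion column, held most of that paternal sum. The summed TE and ExE markers were 1310 FPKM in control males, 728 in control females and 450 in deletion females, and their part in these differences was not tested.

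**Figure D3:**
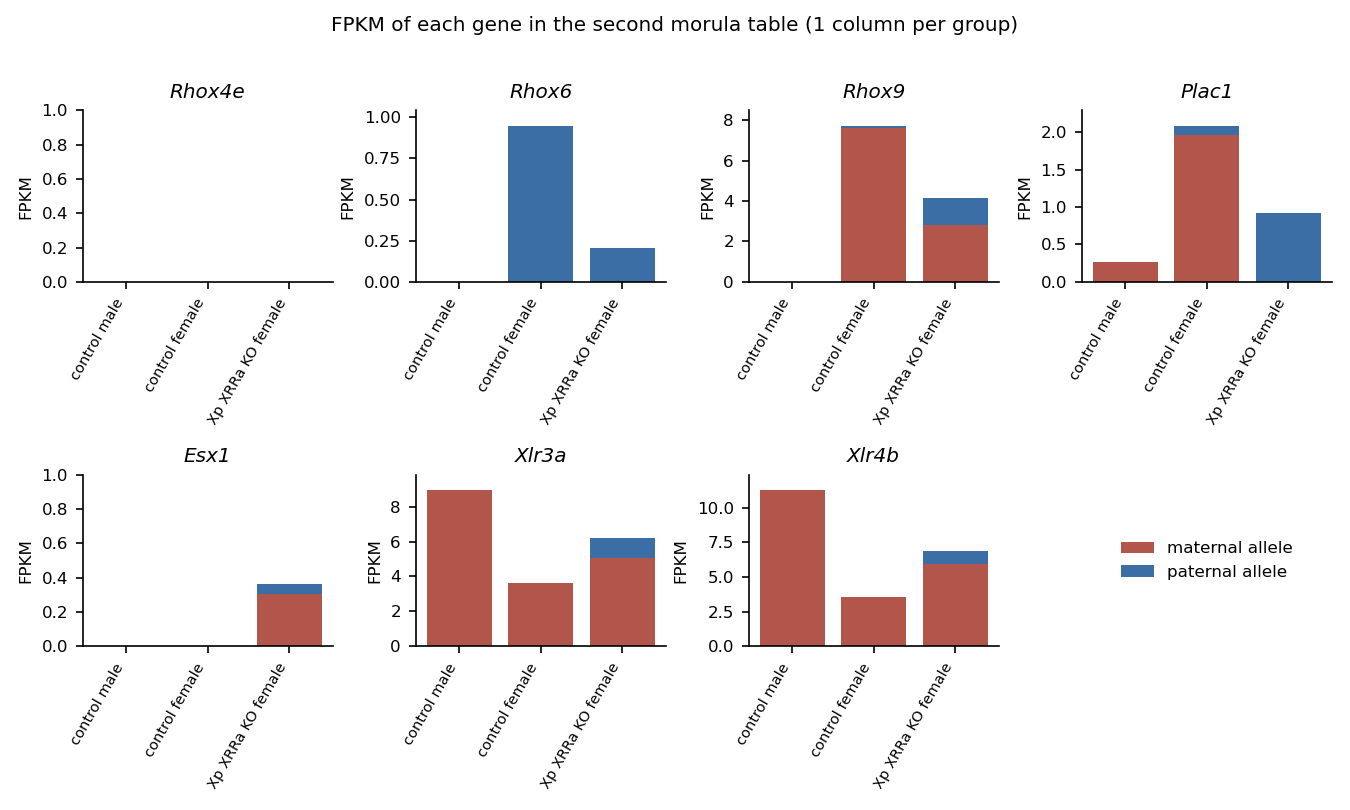
FPKM of the 7 measured genes (y axis, a scale per gene) in the 3 columns of the morula table (x axis), with the maternal allele in red and the paternal allele stacked in blue. Bars are pooled columns without error bars. Control males show no blue, and Xlr3a, Xlr4b and Rhox9 show blue of 1.003 to 1.34 FPKM in the Xp XRRa KO column.

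The EedmNull table, with 1 column per allele for each of 13 embryos, addressed these genes in ExE formed without maternal EED. Rhox6 and Rhox9 had the widest ranges of total FPKM among the 7 genes. The Rhox6 total had a lowest value of 16.2 FPKM, a median of 57.1 and a highest of 149.6, with a mean of 63.9 ± 49.0 (SD, n = 13). Embryos 7, 11 and 13 stood at 139.8 to 149.6 FPKM and the other 10 at 16.2 to 68.3, so these 3 stood apart. Rhox9 had a lowest total of 5.18 FPKM, a median of 13.3 and a highest of 70.2, with the same 3 embryos at 45.8 to 70.2 and the rest at 25.7 or less. Rhox6 and Rhox9 share sequence, and 3.33% of the 300 X-linked genes with a mean total of at least 1 FPKM had the same 3 highest embryos, a count chosen after the values were seen. Plac1 totals were also high in these embryos, 22.6 to 28.1 FPKM, but the highest was 43.8 in embryo 1.

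The other totals spanned narrower ranges in FPKM. In proportion to its lowest value, Plac1 spanned more than Rhox6 and Rhox9, and Rhox4e and Esx1 started from 0. Xlr3a had a lowest total of 11.5 FPKM, a median of 24.1 and a highest of 47.2. Plac1 had 2.98, 12.5 and 43.8 FPKM in the same order, and Xlr4b 1.80, 5.86 and 13.2. Rhox4e ran from 0 in embryos 6 and 8 over a median of 6.65 to 15.8 FPKM in embryo 4. Esx1, with a mean of 0.839 FPKM, was the measured gene that missed the minimum mean of 1 FPKM, so 6 of the 7 entered the tests. Esx1 was listed at 0 in 4 embryos and reached 2.43 FPKM in embryo 4.

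**Figure D4:**
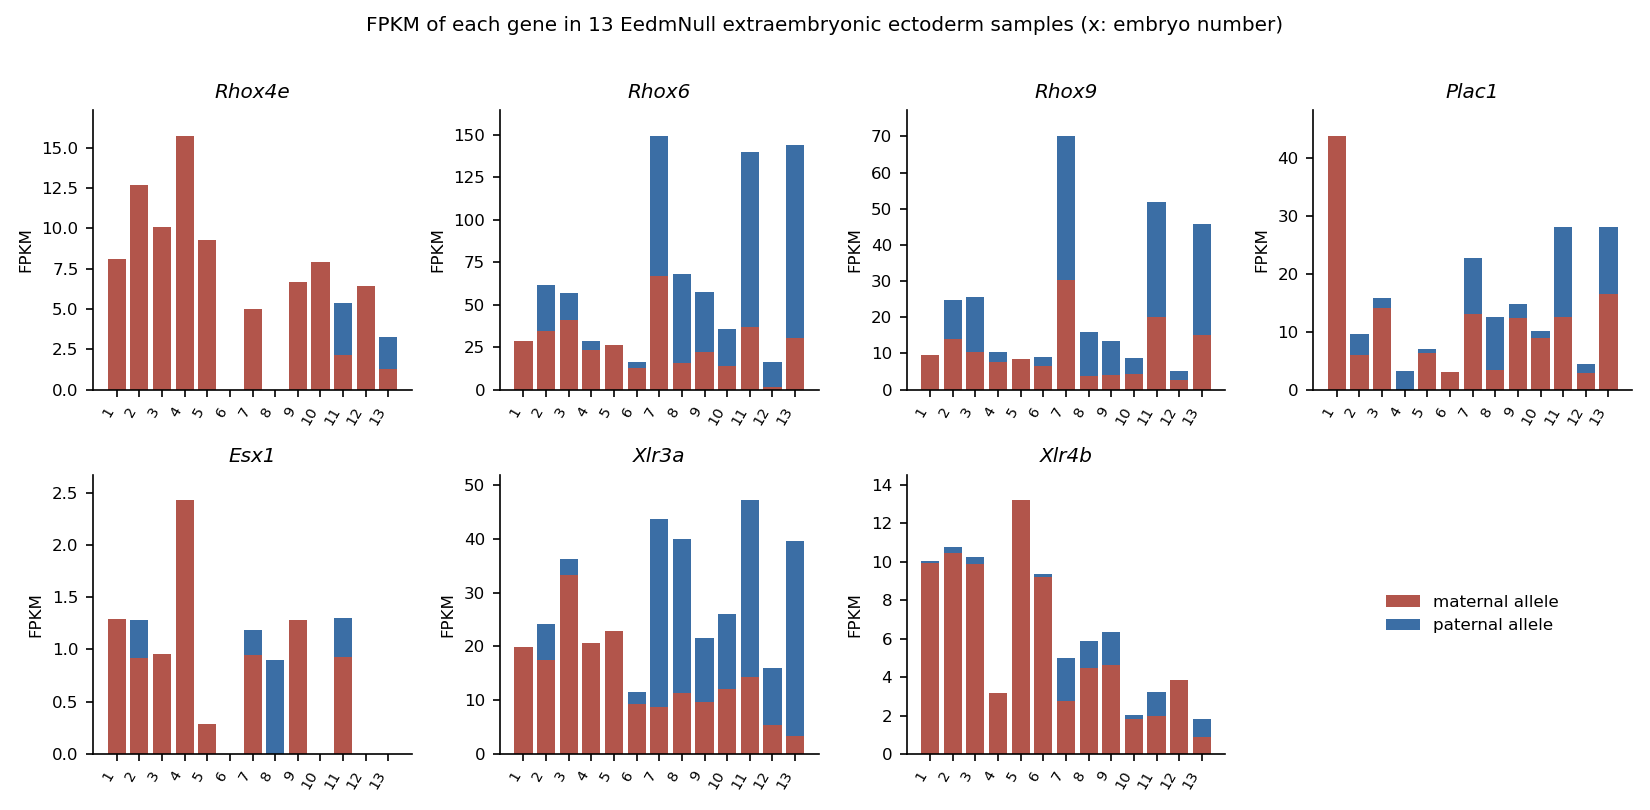
FPKM of the 7 measured genes (y axis, a scale per gene) in the 13 EedmNull embryos (x axis, embryo number), with the maternal allele in red and the paternal allele stacked in blue. Rhox6 and Rhox9 are highest in embryos 7, 11 and 13, mostly in blue, whereas Rhox4e is red except in embryos 11 and 13.

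In EedmNull ExE, 5 of the 6 genes above the minimum mean had paternal signal in 10 or more of 13 embryos, and Rhox4e had it in 2. Of the 300 X-linked genes above that mean, 74.3% had a paternal share above 0% in 10 or more embryos, so the 5 were like most of the X in this. The Rhox6 paternal allele had a lowest value of 0, a median of 21.7 and a highest of 114 FPKM, and its share a median of 55.3% (0 in embryo 5 to 89.2% in embryo 12). Rhox9 had a median share of 51.6% and a highest of 76.1%, and was at 0% in embryos 1 and 5. Xlr3a had a median share of 53.3%, was at 0% in embryos 1, 4 and 5 and reached 91.6% in embryo 13. These 3 genes had more paternal than maternal signal in 7 of 13 embryos each, as did 7% of the 300 genes in at least 7, a number taken from these genes after their values were seen. Plac1 had a median share of 37.5%, with 0% in embryos 1 and 6 and 100% in embryo 4, where its total was 3.14 FPKM. Xlr4b had a median of 3.45% and a highest of 50%. Rhox4e was at 0% in 9 of the 11 embryos in which it was listed above 0 and at 60% in embryos 11 and 13. A share of exactly 0% in at least 9 embryos was found in 0.333% of the 300 genes, which is Rhox4e alone, with the number of 9 taken from Rhox4e itself. Esx1 had a share in 6 embryos, with a median of 10% and a highest of 28.6%. In wild-type ExE of E6.5, in another table and at another stage, the 6 genes other than Esx1 had shares of 0% to 0.332%, and the difference was not tested.

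Embryos differed in the state of the whole X. The median paternal share of the X-linked genes tested ran from 0% in embryo 4, with a middle embryo at 37.2%, to 80.6% in embryo 13. Embryos 1, 3, 4 and 5 were all at 6.95% or less, and these are the embryos in which Xlr3a was at 0% or 8.33%. The log2 ratio of paternal to maternal FPKM plus 1 was therefore fitted with limma over the 13 embryos in 3 ways, against 0, against the median ratio of the same embryo, and as a slope on that median computed without the listed genes. Adjustment followed Benjamini and Hochberg over all 300 genes. Nothing in the labels says whether the embryos came from separate litters.

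Rhox4e and Xlr4b, as single genes, were lower from the paternal allele in each of the first pair of fits, and the calls of Rhox4e ended when the near-identical Rhox4 copies were summed (limma adjusted p = 0.116 against 0 and 0.407 against the embryo median). Against 0, Xlr4b had a log2 ratio of -1.91 (SE 0.35, limma, Benjamini-Hochberg adjusted p = 0.00544) and was below 0 in 12 of 13 embryos. Rhox4e had -2.20 (SE 0.45, limma adjusted p = 0.0114), below 0 in 9 of 13. Of all genes, 9% were lower and 0.333% higher. The other 4 did not pass: Plac1 at -1.13 (limma adjusted p = 0.0905), Xlr3a at -0.83 (0.282), Rhox6 at -0.39 (0.562) and Rhox9 at -0.35 (0.451). Against the embryo's own median, Xlr4b had -1.14 (SE 0.21, limma adjusted p = 0.00175, lower in 11 of 13 embryos). Rhox4e had -1.44 (SE 0.32, limma adjusted p = 0.00616, lower in 12 of 13). In that fit 12.3% of genes were lower and 11.3% higher. Rhox4e was at 0 for both alleles in embryos 6 and 8, where its side of the median comes from the other genes alone. By share, Rhox4e lay below the embryo median in 10 of the 11 embryos that gave one. Rhox9 at 0.42 (limma adjusted p = 0.224, higher in 8 of 13), Rhox6 at 0.38 (0.387, higher in 10), Plac1 at -0.37 (0.546, lower in 9) and Xlr3a at -0.06 (0.909) did not pass. With a pseudocount of 0.1 FPKM the ratios against 0 grew to -4.37 for Rhox4e and -3.37 for Xlr4b, both still past the threshold.

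As slopes, 5 of the 6 genes changed with the rest of the X, in a table where 92.7% of genes did. Xlr3a had the steepest slope of the 6, 2.12 (SE 0.15, limma adjusted p = 6.21e-09), so its ratio moved by more than that of the median gene. Rhox6 had 1.68 (SE 0.24, limma adjusted p = 1.18e-05), Rhox9 0.99 (SE 0.23, 0.000785), Rhox4e 0.99 (SE 0.28, 0.00423) and Xlr4b 0.88 (SE 0.18, 0.000310). Plac1 had 0.59 (SE 0.40, limma adjusted p = 0.169) and did not pass. Without embryo 4 the slope of Plac1 was 1.11 (limma adjusted p = 0.00256). Plac1 was paternal in full in that embryo, whose X-linked median was the lowest of all.

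**Figure D5:**
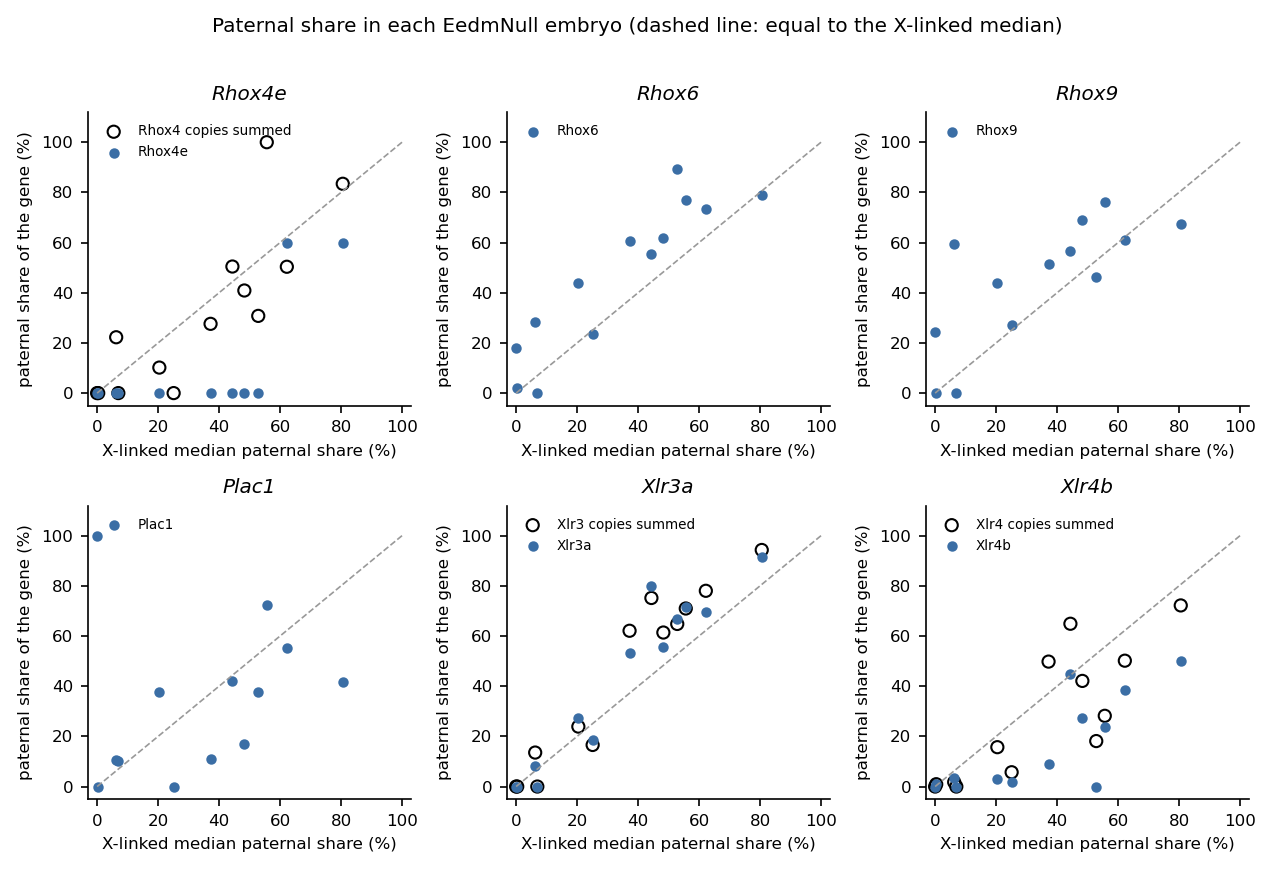
Paternal share of each gene (y axis, percent) against the median paternal share of the X-linked genes of the same embryo (x axis, percent), 1 filled point per EedmNull embryo with a total of at least 1 FPKM; open circles are near-identical copies summed and the dashed line marks equality. Xlr3a rises with the X, Xlr4b lies under the line in 10 of 13 embryos, Plac1 has 1 embryo at 100%, and Rhox4e stays at 0% except in embryos 11 and 13 while the Rhox4 sum does not.

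The Rhox4 copies held opposite alleles in the same embryos. In embryos 7, 9, 10 and 12, Rhox4e was maternal in full (4.99, 6.65, 7.91 and 6.42 FPKM) and Rhox4c paternal in full (5.08, 4.60, 3.02 and 2.85 FPKM). Rhox4c was at 100% paternal in 8 of the 12 embryos with a share, and the median of its shares was 100%. With the Rhox4 copies summed, the median share was 27.6%, the log2 ratio against 0 was -1.16 (limma adjusted p = 0.116) and that against the embryo median -0.39 (limma adjusted p = 0.407), so both calls of Rhox4e ended. The part of sequence identity between the copies was not tested. In embryos 11 and 13 the Rhox4e alleles stood at 2.14 and 3.22 FPKM and at 1.30 and 1.95 FPKM, each in a ratio of 2 to 3 within 0.01%.

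For Xlr4b the calls held with its copies summed, in a sum that includes Xlr4b itself. The 3 Xlr4 copies together had a median share of 18.1%, a log2 ratio against 0 of -1.69 (limma adjusted p = 0.0481) and a ratio against the embryo median of -0.92 (limma adjusted p = 0.0295). The copies alone had median shares of 39.1% for Xlr4a and 16.7% for Xlr4c, and neither passed as a single gene. Against 0, Xlr4a had a log2 ratio of -0.51 (limma adjusted p = 0.289) and Xlr4c -0.96 (limma adjusted p = 0.0838). Against the embryo median, Xlr4a had 0.26 (limma adjusted p = 0.384) and Xlr4c -0.19 (limma adjusted p = 0.676). The Xlr3 copies summed had a median share of 61.4%, with 84.6% for Xlr3c and 44.2% for Xlr3b, and a slope of 2.45 (limma adjusted p = 5.37e-09). Rhox6 and Rhox9 were not summed with others. Ldoc1, with a median share of 18.2%, lay under the X-linked median in 11 of 13 embryos. Allele values in small whole-number ratios were found for Esx1 (3 of 3 embryos with both alleles above 0), Plac1 (8 of 10) and Xlr4b (7 of 10), and for Rhox9 (5 of 11), Xlr3a (3 of 10), Rhox4e (2 of 2) and Rhox6 (1 of 12), counting ratios whose parts sum to at most 50 within 0.01%. The read numbers behind these shares are unknown, and no interval for them was computed.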

How the data were processed

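Mouse embryo RNA was profiled by Smart-seq2 with oligo-dT capture, per the labels' protocols. The authors deposited FPKM values for each allele, and in the stage and morula tables they merged the samples of a group, per the file names. Tools listed in the submitters' processing notes are Trim Galore 0.6.4, HISAT2 2.2.0 and StringTie 2.1.1, and the build is mm9. The method that separated the alleles was not stated in the labels, which limits how far values of near-identical genes can be read, and the tables were normalized separately. The values hold no counts, so depth is unknown.

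Totals were the sum of both alleles. Epiblast and yolk sac were 1 sample each, so a column there is a library. For EedmNull embryos, log2((paternal FPKM + 1)/(maternal FPKM + 1)) was fitted with limma 3.58.1 (R 4.3.3), moderated and 2-sided, for the 300 X-linked genes with a mean total of at least 1 FPKM, with Benjamini-Hochberg adjustment and a threshold of 0.05. No pair of embryo columns was identical. The fits were tested on simulated data. Tables were handled in Python 3.11.15 with pandas 2.3.3. Transcript windows and promoters came from GRCm38.p6 by symbol, with no coordinate set against the mm9 files. All listed genes are named, with up to 4 examples per family list and the 3 nearest genes by correlation. The members and lists were chosen with earlier results of these data known. Alternatives were another pseudocount, other filters and ratios, another variance prior and leaving out each embryo. Summing near-identical copies and leaving out values with both alleles at 0 were added after seeing the data.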

Additional observations from a re-analysis of the deposited data

How the results depend on the processing

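No paired analysis was possible because the pooled columns carry no replicate numbers and the EedmNull embryos form 1 group. Of the calls on single genes, those of Rhox4e (limma) ended when near-identical copies were summed, as given above, and the slope of Plac1 passed without embryo 4 and, at 0.74 (limma adjusted p = 0.0214), without the 2 embryos farthest from the middle; the cause was not tested. Rhox4e and Xlr4b kept their calls whichever embryo was left out, with adjusted p between 0.00420 and 0.0350 and between 0.00237 and 0.0178 against 0. Xlr3a against the embryo median, never past the threshold, turned to 0.25 at a mean of at least 5 FPKM and ranged from -0.24 to 0.14 as embryos were left out. Genes lower against 0 numbered 17 at 5 FPKM and 51 with a trended robust prior, and ranged from 4 (without embryo 6 or 10) to 186 (without embryo 13) as embryos were left out, with 5 to 12 without embryos 1 to 5 or 7. Against the embryo median, genes higher numbered 19 with a pseudocount of 0.1 or at 5 FPKM and ranged from 20 (without embryo 3) to 55 (without embryo 13), and genes lower from 23 (without embryo 6) to 44. For slopes, 169 genes rose at 5 FPKM, where fewer genes were tested, and 1 fell at 0.1 FPKM.

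With a factor of 4 the rule of size held 505 genes for morula over 8-cell, 501 for TE over ICM, 714, 754 and 1200 for ExE over epiblast, VE and TE, and 32, 47 and 57 for total, maternal and paternal Xp XRRa KO over control females. With 1 FPKM as its minimum it held 2614 for ExE over epiblast, 6562 for yolk sac over VE, and 754, 792 and 761 for those deletion contrasts. The maternal Rhox9 ratio did not pass at a factor of 4. The percent of X-linked genes at 20% or less became 27.7, 46.8, 11.4, 83.0 and 9.27 at a minimum of 0.1 FPKM in 8-cell, morula, epiblast, ExE and deletion columns, and 11.5, 60.5, 75.4 and 26.7 at 5 FPKM in 8-cell, ICM, TE and control female columns. The FPKM behind a share can be a few reads, which the unknown depth leaves without an error.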

Other observations

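The genes with the same 3 highest EedmNull embryos as Rhox6 (embryos 7, 11 and 13) were 10 in all, Rhox6, Rhox9, Xlr3c, Bex1, Ngfrap1, Ids, Sat1, Upf3b, Zfp36l3 and 3830417A13Rik, listed after their values were seen. In the same 3 embryos Rhox4e stood at 3.26 to 5.36 FPKM against a median of 8.02 in the other 10, and Xlr4b at 1.80 to 4.99 FPKM against a median of 7.84. Xlr, the founding gene of its family, was listed at 14.7 FPKM in 8-cell embryos, all of it paternal, where Xlr3b was at 5.65 FPKM, all of it maternal. In morula controls Xlr had a paternal share of 26.8% in females, and 58.0% in Xp XRRa KO females. Gpc4, an X-linked heparan sulfate proteoglycan gene, had 1.80 FPKM in control female morulae and 5.94 FPKM in Xp XRRa KO females. Its paternal shares there were 100% and 83.7%. The wild-type female morulae of the stage columns, normalized separately, had 9.23 FPKM of Gpc4 and a share of 34.5%, so the control female value is not typical of wild-type morulae.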
